A study of Mus musculus with 12 samples.

Results

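The 8 genes of the LIN28 and let-7 axis (Lin28a, Lin28b, Trim71, Hmga2, Igf2bp1, Igf2bp2, Igf2bp3 and Mycn) were followed through the reprogramming of mouse embryonic fibroblasts (MEFs). They were taken by symbol from the 24098 genes of the deposited expression table, by a rule that sets no limit on their values. Of the 8 genes, 7 were at 1 FPKM or more in at least 1 library, as were 14178 of all genes. Lin28b was below 1 FPKM in all 12 libraries and is given as levels, outside the counts. FPKM, the number of fragments scaled by transcript length and by library size, is a level per length, so levels of different genes can be set side by side.

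MEFs with an IRES-EGFP cassette behind the Oct4 coding sequence were infected with pMXs retroviruses carrying Oct4, Sox2, Klf4 and c-Myc (OSKM). Unsorted cells were collected on days 0 and 3 (D0, D3). Cells were sorted on Thy-1, a fibroblast surface protein, on days 6 and 9 (D6T-, D6T+, D9T-, D9T+), and on days 12 and 16 on SSEA-1, a carbohydrate antigen that pluripotent cells display (D12S+, D12S-, D16S+, D16S-). Thy-1- and then SSEA-1+ cells were regarded by the study as the successful route. Fully reprogrammed iPSCs and mouse embryonic stem cells of the line ES-D3 (ESD3 in the labels, mESCs here) were the end points. D0 was labelled as day 0 wild type. MEFs were grown in a serum medium. Per the labels, reprogramming cells, iPSCs and mESCs were grown in FF medium, a feeder-free serum replacement medium with leukemia inhibitory factor, ascorbic acid, bFGF, the GSK3 inhibitor CHIR99021 and N-2, whereas the study's methods name other media for iPSCs and embryonic stem cells and several media for reprogramming. Where the medium changed along with infection, between D0 and the libraries of days 3 to 16, medium and infection cannot be told apart. By the labels, iPSCs and mESCs differed from D0 in medium as well, so comparisons of iPSCs with D0 carry this limit too. Each condition had 1 library of polyA RNA, no difference had a replicate check, and no test between conditions was possible. The sources used here did not say how many iPSC clones or MEF preparations were behind a library.

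Depth relative to D0, estimated from the steps of low FPKM values, lay between 0.966 in D9T+ and 1.56 in D6T-. The labels were checked against marker genes. The summed level of 7 fibroblast markers was 7190 FPKM in D0, 1990 in D3, 416 in D6T- against 2650 in D6T+, 362 in D9T- against 2190 in D9T+, 248 in D12S+ against 673 in D12S-, 33.4 in D16S+ against 428 in D16S-, 55.1 in iPSCs and 51.1 in mESCs. The summed level of 7 pluripotency markers was 2.11 FPKM in D0, 1.79 in D3, 4.52 in D6T- against 2.23 in D6T+, 140 in D9T- against 29.7 in D9T+, 2070 in D12S+ against 87.8 in D12S-, 4760 in D16S+ against 131 in D16S-, 3440 in iPSCs and 4020 in mESCs. The sum of 4 leukocyte markers ranged from 14.8 FPKM in D6T- to 144 in D16S-. Ptprc, the pan-leukocyte antigen, was highest in D6T-, at 0.425 FPKM, and listed at 0 in D16S+, iPSCs and mESCs. The other markers did not share this course: Cd68 was at 9.05 FPKM in D0 and 115 in D16S-, and Csf1r at 1.55 and 19.9. Cd14 was at 9.79 FPKM in D0 and 9.03 in D16S-. The sum of 5 epithelial markers ranged from 38.0 FPKM in D3 to 1550 in iPSCs, with 827 in D16S+ and 1400 in D16S-, and that of 4 endothelial markers from 9.4 FPKM in D6T+ to 62.7 in mESCs. These markers moved together with several of the genes described here, and their part in the results was not tested. In bulk RNA, fewer cells of a type and less RNA per cell cannot be told apart.

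As background, let-7 is a family of microRNAs that is abundant in differentiated cells and lowers the mRNAs that carry matches to its seed. LIN28A and LIN28B are RNA-binding proteins of embryonic cells that bind let-7 precursors and hold mature let-7 down. LIN28A does so by marking the precursor for uridylation and decay. Lin28a and Lin28b are themselves let-7 targets, so that each side represses the other. Trim71 (a ubiquitin ligase and RNA-binding protein of stem cells and early embryos), Hmga2 (a chromatin protein of fetal mesenchyme), the Igf2bp genes (binding proteins of mRNAs such as Igf2) and Mycn (a MYC family transcription factor) are known as let-7 targets in other systems.

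The sequences that tie the genes to let-7 are shown first. The mature let-7 sequences of RefSeq (GRCm38.p6) are printed 5′ to 3′ with the seed, bases 2 to 8, in capitals, for 3 members with the common seed and for the 1 that differs.
let-7a-5p: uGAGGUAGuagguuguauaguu
let-7d-5p: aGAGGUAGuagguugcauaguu
let-7g-5p: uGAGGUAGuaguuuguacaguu
let-7j: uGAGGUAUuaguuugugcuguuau
Of 10 mature let-7 sequences, 9 carried the seed GAGGUAG and let-7j carried GAGGUAU.

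LIN28 proteins are known to contact a GGAG in the loop of the precursor. This motif, in capitals below, lay between the arms of 9 of 11 let-7 hairpins and was not found there in Mirlet7b and Mirlet7c-2. A hairpin of each kind is shown, from RefSeq on GRCm38.p6, both on the plus strand.
Mirlet7g, chr9:106178840-106178927: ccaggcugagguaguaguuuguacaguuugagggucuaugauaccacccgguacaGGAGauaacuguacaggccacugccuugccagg
Mirlet7b, chr15:85707319-85707403: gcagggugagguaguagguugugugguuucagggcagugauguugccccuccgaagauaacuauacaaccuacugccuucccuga

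The 7-base match to the common seed, CTACCTC, was searched on the sense strand of the longest annotated 3′ UTR of each gene (GENCODE M1, mm9). It was found in 8.81% of 19915 genes and in 7 of the 8 genes of the axis. The genes were named as a let-7 axis, so this count is a description of the choice and not a finding. Igf2bp1, Lin28b and Hmga2 held 4 matches each, Lin28a and Trim71 held 2 each, and Igf2bp2 and Igf2bp3 held 1 each. Mycn held none in its UTR of 910 bases and had 2 matches to the shorter, 6-base TACCTC, which is contained in the 7-base match and which 22.0% of genes held. Longer UTRs hold more matches by their length. Of UTRs of like length, 33.3% held at least 1 match for Igf2bp1 (6337 bases) and 25.4% for Lin28b (4445 bases). This share was 17.6% for Hmga2 (3014 bases) and 11.1% for Trim71 (1370 bases). At least as many matches as in the gene itself stood in 0.197%, 0.213%, 0.145% and 0.748% of these UTRs, in that order. The gene's own UTR is included in each share, and Igf2bp1 had only 508 UTRs of like length. These shares too describe genes chosen as a let-7 axis. The share with as many was 2.37% for Lin28a, 13.0% for Igf2bp2 and 14.0% for Igf2bp3. The match with an A after it, CTACCTCA, stood in 3.02% of genes and in the same 7 of the 8. One window of 30 bases per gene is shown, with the 7-base match in capitals. All are on the minus strand of mm9 and are printed 5′ to 3′ on that strand.
Lin28a, chr4:133561104-133561133: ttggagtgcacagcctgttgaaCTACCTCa
Lin28b, chr10:45100828-45100857: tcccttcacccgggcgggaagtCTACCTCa
Trim71, chr9:114421590-114421619: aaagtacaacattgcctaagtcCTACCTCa
Hmga2, chr10:119801280-119801309: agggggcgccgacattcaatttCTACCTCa
Igf2bp1, chr11:95823092-95823121: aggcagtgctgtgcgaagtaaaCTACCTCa
Igf2bp2, chr16:22059546-22059575: gagaaaaacacacaaataaaagCTACCTCa
Igf2bp3, chr6:49036786-49036815: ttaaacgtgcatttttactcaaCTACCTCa
A match in the annotation is not evidence of a site in use, and UTRs shortened in a given cell type would not show here.

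**Figure D1:**
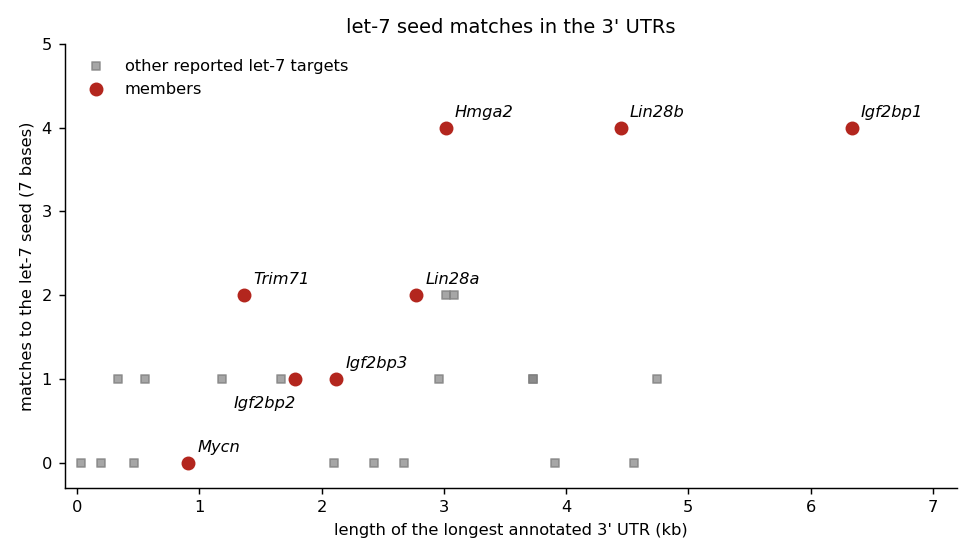
Number of 7-base let-7 seed matches (y axis) against the length in kilobases of the longest annotated 3′ UTR (x axis) for the 8 genes of the axis (red circles, named) and for 18 other reported let-7 targets (grey squares). Igf2bp1, Lin28b and Hmga2 sit highest, at 4 matches, and Mycn lies at 0.

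Lin28a (mm9, chromosome 4, 133559245 to 133574756) was close to absent in MEFs and reached one of the highest levels of the 8 genes in iPSCs, below that of Igf2bp1. Its level was 0.0275 FPKM in D0, 0.0184 in D3, 0.0176 in D6T- and 0.0327 in D6T+. It was 0.921 FPKM in D9T- and 0.413 in D9T+, 23.9 in D12S+ and 1.24 in D12S-, 49.7 in D16S+ and 3.38 in D16S-, 75.7 in iPSCs and 37.4 in mESCs. Libraries up to day 6 were thus near 0, the SSEA-1+ libraries and both end points were above 20 FPKM, and the SSEA-1- libraries lay between. In units of 0.5 of the D0 value, corrected for depth, the level was 2.00 in D0, D3 and D6T- and 3.00 in D6T+, so that the early values may each rest on a few fragments. In the same units it was 73.01 in D9T- and 29.02 in D9T+. If a unit is 1 fragment, the ratio of iPSCs to D0 was 2754, with an exact 95% interval of 762 to 22700 that covers counting error only.

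The interval that cuffdiff attached to each FPKM was wide, and it is modelled and holds no measured variation between cultures. For Lin28a it ran from 0 to 0.111 FPKM in D0, from 1.14 to 46.7 in D12S+, from 2.68 to 96.8 in D16S+, from 4.11 to 147 in iPSCs and from 2.03 to 72.8 in mESCs. Lin28a had non-overlapping intervals in 21 of 66 pairs of libraries, Trim71 in 7, Mycn in 5, and Hmga2 and Igf2bp1 in 0. For D12S+ against D12S- and for D16S+ against D16S- the intervals of Lin28a overlapped.

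Lin28b (chromosome 10, 45096426 to 45206201), the paralog of Lin28a, stayed low throughout. It was listed at 0 in D0 and was at 0.128 FPKM in D3, 0.334 in D6T-, 0.391 in D9T-, 0.914 in D12S+, 0.995 in D16S+, 0.716 in iPSCs and 0.971 in mESCs. The other fractions had 0.0622 FPKM in D6T+, 0.108 in D9T+, 0.374 in D12S- and 0.471 in D16S-. On each of the 4 sorted days the Thy-1- or SSEA-1+ fraction was the higher one, at levels below 1 FPKM on both sides. Lin28a stood below Lin28b in D3 and in both fractions of day 6. From day 9 it stood above, with a ratio of Lin28a to Lin28b of 26.2 in D12S+, 50.0 in D16S+, 106 in iPSCs, 38.6 in mESCs and 7.19 in D16S-.

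Trim71 (chromosome 9, 114420393 to 114473487) followed Lin28a from an earlier start. It was at 0.263 FPKM in D0, 0.316 in D3, 1.16 in D6T-, 3.33 in D9T-, 16.4 in D12S+, 25.7 in D16S+, 42.9 in iPSCs and 21.6 in mESCs. In the other fractions it was at 0.554 FPKM in D6T+, 1.93 in D9T+, 3.44 in D12S- and 5.25 in D16S-. Each library of the Thy-1- and SSEA-1+ series was above the one before it, and both end points were above every SSEA-1- or Thy-1+ library. The cuffdiff interval was 2.18 to 83.5 FPKM in iPSCs and 0 to 0.842 in D0.

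Mycn (chromosome 12, 12942902 to 12948720) had its highest levels on the route and not at its end. It was at 0.843 FPKM in D0, 0.414 in D3, 0.288 in D6T-, 4.13 in D9T-, 31.9 in D12S+, 36.4 in D16S+, 17.8 in iPSCs and 22.6 in mESCs. The other fractions were at 0.565 FPKM in D6T+, 2.17 in D9T+, 2.62 in D12S- and 3.04 in D16S-. D12S+ and D16S+ were the highest of the 12 libraries, with intervals that overlapped those of iPSCs and mESCs. The retroviruses carried c-Myc and not Mycn, so values of Mycn hold no viral transgene by design.

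Hmga2 (chromosome 10, 119798331 to 119913525) took the opposite course. It was at 96.5 FPKM in D0, 31.3 in D3, 13.7 in D6T-, 6.39 in D9T-, 6.85 in D12S+ and 3.46 in D16S+, and at 15.9 in iPSCs and 9.67 in mESCs. The other fractions held more of it, at 59.0 FPKM in D6T+, 22.8 in D9T+, 12.2 in D12S- and 12.4 in D16S-. The lowest library was D16S+, and iPSCs were above every Thy-1- and SSEA-1+ library. The interval in D0 was 1.49 to 192 FPKM and overlapped that of every other library. The summed fibroblast markers given above were also highest in D0, higher in the Thy-1+ and SSEA-1- fractions and lowest in D16S+.

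**Figure D2:**
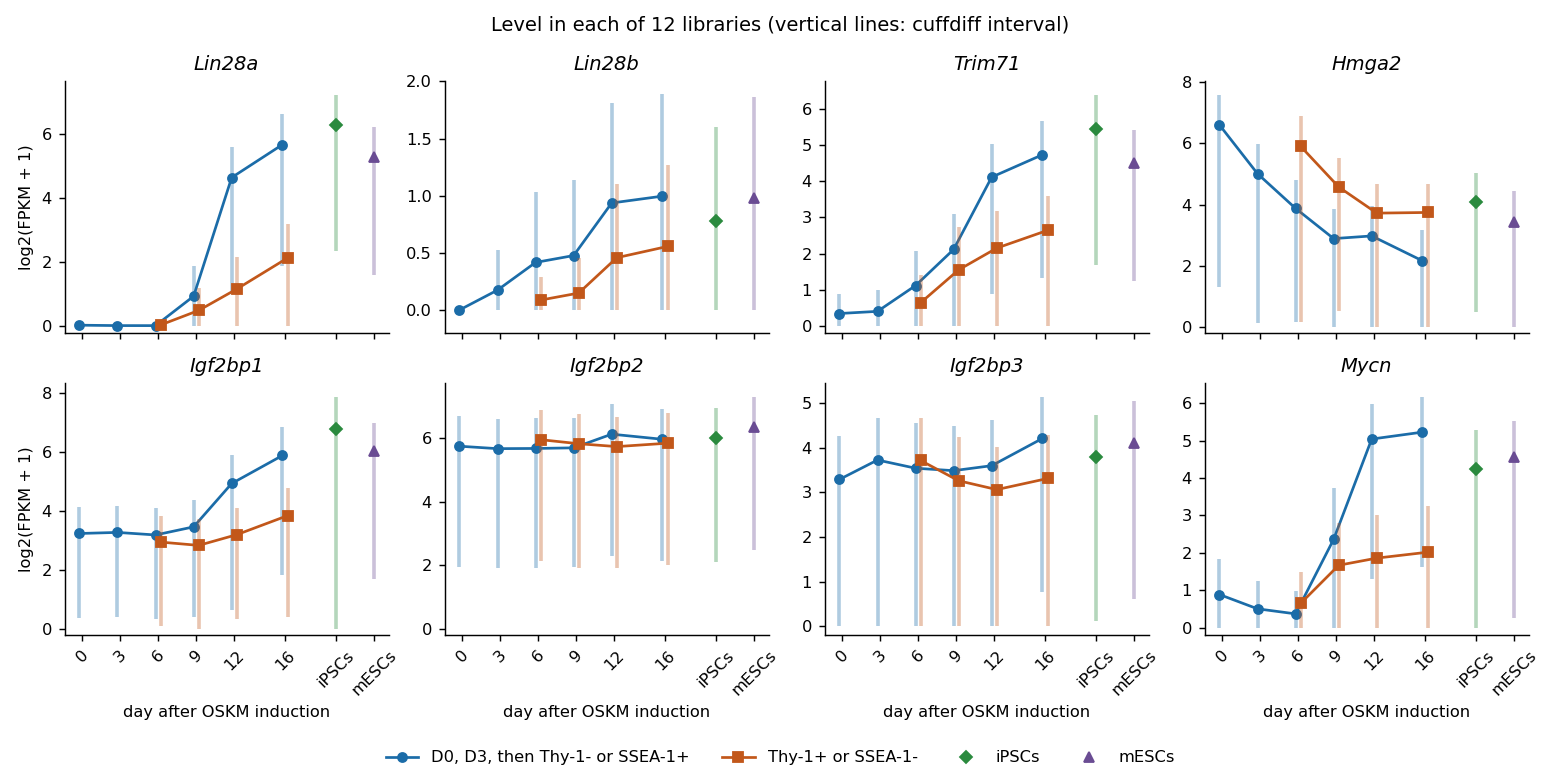
Level of each of the 8 genes as log2(FPKM + 1) (y axis, own scale in each panel) against the day after OSKM induction (x axis), with iPSCs and mESCs at the right. Points are single libraries, blue for D0, D3 and then the Thy-1- or SSEA-1+ fractions and orange for the Thy-1+ or SSEA-1- fractions, and the pale vertical lines are the cuffdiff intervals. Lin28a, Trim71, Mycn and Igf2bp1 part between the fractions at day 12, where the sorting marker changes from Thy-1 to SSEA-1. Hmga2 lies lower in the blue series from day 6, and Igf2bp2 is nearly flat.

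The 3 IGF2BP genes encode related RNA-binding proteins and took unlike courses. Igf2bp1 (chromosome 11, 95818477 to 95867254) was at 8.43 FPKM in D0, 8.67 in D3, 8.11 in D6T-, 10.02 in D9T-, 29.5 in D12S+, 57.9 in D16S+, 108 in iPSCs and 63.8 in mESCs. Its other fractions were at 6.71 FPKM in D6T+, 6.14 in D9T+, 8.17 in D12S- and 13.3 in D16S-. SSEA-1+ cells and both end points were thus above every other library. Igf2bp2 (chromosome 16, 22059082 to 22163372) ranged only from 50.1 FPKM in D3 to 80.7 in mESCs, a ratio of 1.61 between the highest and the lowest library. Igf2bp3 (chromosome 6, 49035220 to 49164953) ranged from 7.36 FPKM in D12S- to 17.5 in D16S+, a ratio of 2.38. The same ratio was 17.5 for Igf2bp1, 27.9 for Hmga2, 126 for Mycn, 163 for Trim71 and 4300 for Lin28a.

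The make-up of the family's mRNA changed with Igf2bp1. The summed level of the 3 genes was 70.1 FPKM in D0, of which Igf2bp2 made up 75.4% and Igf2bp1 12.0%. In D12S+ the sum was 110 FPKM with 26.9% Igf2bp1, in D16S+ 137 FPKM with 42.2%, in iPSCs 184 FPKM with 58.4%, and in mESCs 161 FPKM with 39.7%. In D16S- the sum was 78.8 FPKM with 16.9% Igf2bp1 and 71.7% Igf2bp2, close to the values in D0. Igf2bp1 was the largest of the 3 in iPSCs, and Igf2bp2 in the other 11 libraries. In iPSCs the cuffdiff interval was 0 to 231 FPKM for Igf2bp1 and 3.29 to 125 for Igf2bp2. These intervals overlap, and the rank rests on 1 library.

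**Figure D3:**
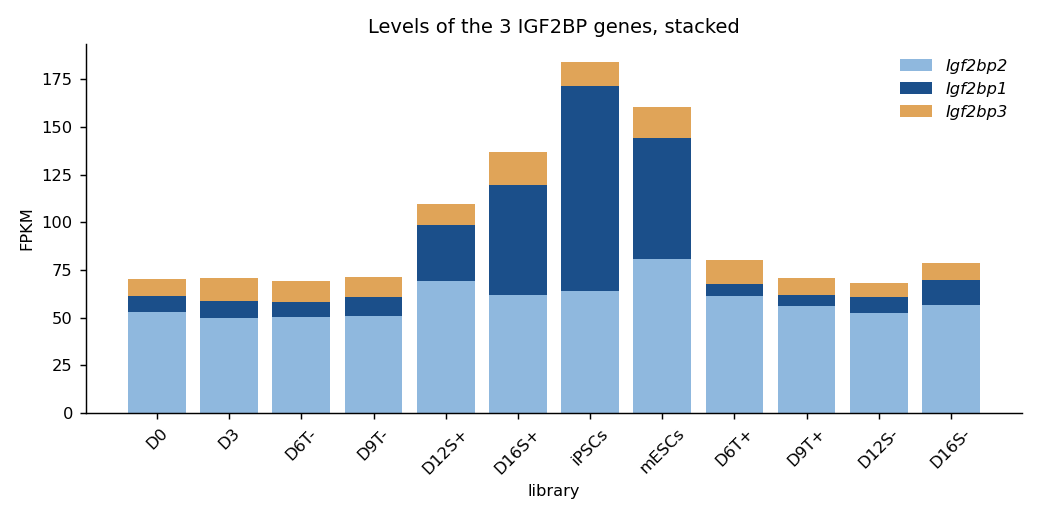
Level in FPKM (y axis) of Igf2bp2, Igf2bp1 and Igf2bp3 stacked in each of the 12 libraries (x axis, single libraries without error bars). The Igf2bp2 segment is 50.1 to 80.7 FPKM high in every library, and the Igf2bp1 segment widens from D12S+ to iPSCs.

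The first days of OSKM expression were examined next, on the scale of log2(FPKM + 1), which understates changes at low levels. Between D3 and D0, 1 of the 7 genes that passed the filter differed by 2-fold or more. This was Hmga2, with a log2 difference of -1.60 (31.3 against 96.5 FPKM). Of all genes, 8.67% were lower in D3 by 2-fold or more and 5.76% were higher, which became 6.26% and 8.13% when the libraries were scaled to the same total FPKM. A count of 1 of 7 is thus near the background. The intervals of the 7 genes overlapped. Those of 0.0846% of all genes lay wholly higher and 0.0494% wholly lower in D3, so that this too is near the background. The differences of the other 6 genes lay between -0.38 (Mycn) and 0.44 (Igf2bp3), with a median over the 7 of -0.01 beside -0.02 over all genes.

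From MEFs to established iPSCs, Lin28a was higher by 6.22, Trim71 by 5.12, Igf2bp1 by 3.53 and Mycn by 3.35 on the log2 scale, all past 4-fold. Hmga2 was lower by more than 4-fold, with a difference of -2.53 and levels of 15.9 FPKM in iPSCs and 96.5 in D0. Igf2bp3 (0.50), Igf2bp2 (0.27) and the low Lin28b (0.78) did not pass 4-fold. Of the 7 genes 4 were thus higher and 1 lower, where 6.19% of all genes passed 4-fold upwards and 9.2% downwards. Scaled to the same total FPKM, these shares became 7.0% and 7.63%. The median of the 7 was 3.35 beside 0.03 over all genes. A difference at least as high as that of Lin28a was found in 32 of the 14178 genes, as high as that of Trim71 in 74, of Igf2bp1 in 255 and of Mycn in 289, each count with the gene itself included. A difference at least as low as that of Hmga2 was found in 855. The intervals of iPSCs and D0 did not overlap for Lin28a and Trim71, as for 0.466% of all genes in that direction and 0.522% in the other.

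The SSEA-1- cells of day 16 were compared with D0 to see which of these differences the other fraction shared. Trim71 (5.25 against 0.263 FPKM, log2 difference 2.31) and Lin28a (3.38 against 0.0275 FPKM, 2.09) were more than 4-fold above D0 on the log2(FPKM + 1) scale, and Hmga2 (12.4 against 96.5 FPKM, -2.87) more than 4-fold below. Among all genes 5.25% passed 4-fold upwards and 2.95% downwards. None of the 7 had intervals apart here, which is near the background. Intervals lay wholly higher for 0.346% of all genes and wholly lower for 0.0423%. Mycn differed by 1.13, Igf2bp1 by 0.60, Igf2bp2 by 0.09 and Igf2bp3 by 0.02, none past 4-fold. The comparisons of iPSCs and of D16S- share the D0 library.

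The fractions of each day were then compared. On day 6, Hmga2 was lower in Thy-1- than in Thy-1+ cells, with a log2 difference of -2.03 (13.7 against 59.0 FPKM), and the other 6 genes differed by less than 2-fold, between -0.28 (Mycn and Igf2bp2) and 0.48 (Trim71). Past 2-fold, 9.47% of all genes were lower and 2.93% higher in D6T-. On day 9, Hmga2 was again past 2-fold, with a log2 difference of -1.69, and the others lay between -0.13 (Igf2bp2) and 0.69 (Mycn). Past 2-fold, 6.45% of all genes were lower and 1.81% higher in D9T-. The median of the 7 was -0.17 on day 6 and 0.44 on day 9, beside 0.00 and 0.02 over all genes.

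On day 12 the picture was another. Lin28a was higher in SSEA-1+ than in SSEA-1- cells by 3.47 (23.9 against 1.24 FPKM), Mycn by 3.18 (31.9 against 2.62), Trim71 by 1.97 (16.4 against 3.44) and Igf2bp1 by 1.73 (29.5 against 8.17). These 4 were past 2-fold, as were 4.79% of all genes. Hmga2 (-0.75), Igf2bp3 (0.54) and Igf2bp2 (0.39) were not past 2-fold, and 3.03% of all genes were past it on the lower side. Lin28a ranked high among all genes, with 21 of 14178 at least as high, and Mycn had 31, Trim71 135 and Igf2bp1 192.

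On day 16 the same 4 genes were past 2-fold, Lin28a by 3.53 (49.7 against 3.38 FPKM), Mycn by 3.21 (36.4 against 3.04), Trim71 by 2.10 (25.7 against 5.25) and Igf2bp1 by 2.04 (57.9 against 13.3). Hmga2 was past 2-fold in the other direction, at -1.58 (3.46 against 12.4 FPKM). Igf2bp3 (0.90) and Igf2bp2 (0.12) were not past 2-fold. Past 2-fold, 11.8% of all genes were higher and 15.2% lower in D16S+, a wider background than on day 12. Scaled to the same total FPKM, these shares became 14.0% and 13.9%. Differences at least as high as those of the 4 genes were found in 62 genes for Lin28a, 86 for Mycn, 340 for Trim71 and 366 for Igf2bp1. The median of the 7 was 1.73 on day 12 and 2.04 on day 16, beside -0.01 and -0.02 over all genes. The intervals of these genes overlapped between the fractions on each of the 4 days. Over all genes intervals were likewise apart in 0 cases on days 6, 9 and 12, and on day 16 lay wholly higher in D16S+ for 0.0141%. On day 16 the summed leukocyte markers stood at 70.3 FPKM in D16S+ and 144 in D16S-, beside the fibroblast and pluripotency sums given above.

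**Figure D4:**
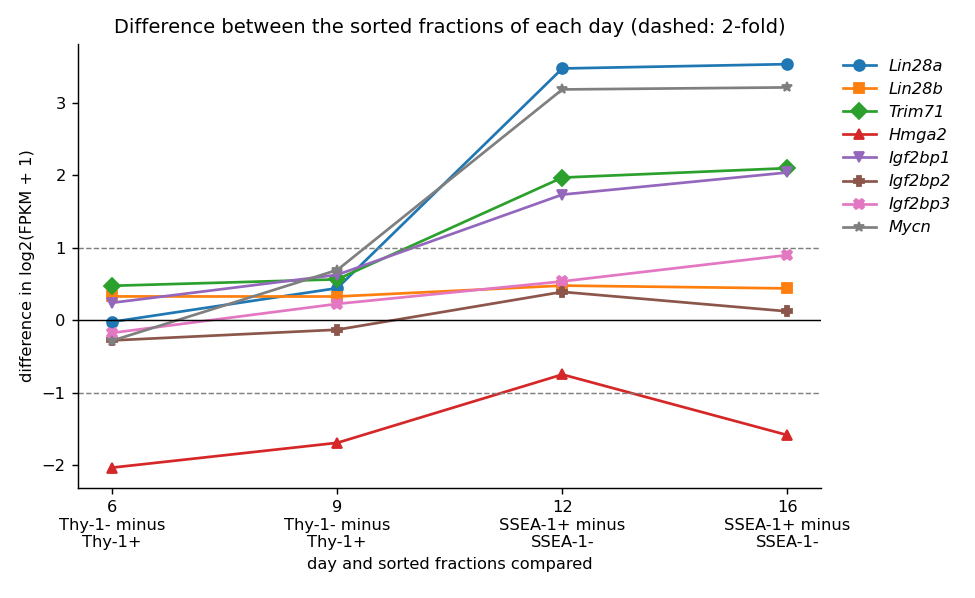
Difference in log2(FPKM + 1) between the sorted fractions (y axis) on days 6, 9, 12 and 16 (x axis), Thy-1- minus Thy-1+ and then SSEA-1+ minus SSEA-1-, for the 8 genes, 1 library per fraction and no error bars. Dashed lines mark 2-fold. Between days 9 and 12 the joined points differ in sorting marker as well as in day. Lin28a and Mycn reach 3.47 and 3.18 on day 12, and Hmga2 lies below 0 on all 4 days, between -2.03 and -0.75.

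The end points were compared with each other. None of the 7 genes differed by 4-fold between iPSCs and mESCs, where 1.23% of all genes were past it upwards and 0.952% downwards in iPSCs. This count is thus near the background and does not set the 7 apart from other genes. Lin28a was at 75.7 FPKM in iPSCs and 37.4 in mESCs, a log2 difference of 1.00, Trim71 differed by 0.96, Igf2bp1 by 0.75 and Hmga2 by 0.66. Igf2bp2 and Mycn (-0.33 each) and Igf2bp3 (-0.32) lay on the other side. Of the 14178 genes, 969 were at least as high as Lin28a, 1049 as Trim71, 1583 as Igf2bp1 and 1869 as Hmga2. At least as low were 3988 for Igf2bp2, 4023 for Mycn and 4098 for Igf2bp3, each count with the gene itself included. The intervals overlapped for each of the 7, and with 1 library each these differences cannot be set against a spread between lines.

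The let-7 microRNAs themselves were not measured. The table had 11 rows for let-7 microRNA genes, and all 11 were listed at 0 in all 12 libraries. Libraries of polyA RNA are not made to capture mature microRNAs. A host transcript, Mirlet7bhg, is by its name that of Mirlet7b, 1 of the 2 hairpins without GGAG between the arms. Mirlet7bhg was listed, and does not stand for let-7 precursors as a whole. It was at 1.68 FPKM in D0, 0.367 in D3, 0.461 in D6T-, 2.40 in D9T-, 1.68 in D12S+ and 0.838 in D16S+, at 0.0333 in mESCs and at 0 in iPSCs. The other fractions were at 0.463 FPKM in D6T+, 1.95 in D9T+, 2.75 in D12S- and 3.68 in D16S-. The SSEA-1- libraries were the highest and the end points the lowest, and a host transcript gives no level of mature let-7.

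Genes that make or act on let-7 were examined as 2 lists. Of 10 microRNA processing genes 9 passed the filter, and 0 were past 4-fold between iPSCs and D0, where 6.19% of all genes were higher and 9.2% lower, so that a count of 0 of 9 is near the background. Their median was 0.98 beside 0.03 over all genes. Drosha, the nuclease that cuts the primary transcript, was at 28.2 FPKM in D0 and 65.4 in iPSCs. Between D16S+ and D16S- 1 of the 9 was more than 2-fold higher, beside 11.8% of all genes, so that this count is near the background. The gene was Dgcr8, the RNA-binding partner of Drosha, at 15.9 against 7.17 FPKM. The median of the 9 was 0.64 there beside -0.02 over all genes, with 8 of the 9 above 0. The 5 regulators of the precursor had 0 past 4-fold between iPSCs and D0 and 0 past 2-fold between the fractions of day 16, with medians of 0.82 and 0.31 beside 0.03 and -0.02 over all genes. Zcchc11, a uridylyl transferase that LIN28A recruits, was at 2.50 FPKM in D0 and 5.65 in iPSCs, and its paralog Zcchc6 was at 13.7 and 6.22. Dis3l2, the exonuclease that degrades uridylated pre-let-7, was at 8.34 FPKM in D0, 25.0 in D9T- and 8.72 in iPSCs.

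The 18 other reported let-7 targets had no common direction. Between iPSCs and D0, 1 was more than 4-fold higher, Arid3b, a DNA-binding protein, at 42.7 against 1.97 FPKM. Another 3 were more than 4-fold lower: Ccnd1 at 56.8 against 283 FPKM and Ccnd2 at 1.41 against 101, both D-type cyclins, and Thbs1, a matrix glycoprotein of fibroblasts, at 30.8 against 812. Of all genes 6.19% were past this fold upwards and 9.2% downwards, so that 1 of 18 is near the background. The median of the 18 was 0.42 beside 0.03 over all genes. Between D16S+ and D16S-, 3 were more than 2-fold higher (11.8% of all genes) and 6 more than 2-fold lower (15.2% of all genes), with a median of -0.59 beside -0.02. The higher genes included Arid3b (29.4 against 9.08 FPKM) and Cdc25a, a cell cycle phosphatase (31.3 against 14.3). The 6 were Thbs1 (34.6 against 355 FPKM), Ccnd2 (17.4 against 143), Ccnd1 (35.3 against 246), Myc (92.6 against 599), and the signalling genes Irs2 (8.23 against 23.7) and Igf1r (4.15 against 12.6). Myc values can hold reads of the retroviral c-Myc, and without Myc the medians were 0.33 between iPSCs and D0 and -0.56 on day 16. A 7-base let-7 match stood in the longest UTR of 10 of the 18, beside 8.81% of all genes. The 18 were listed as reported let-7 targets, so this count describes the choice, and UTR length was not matched in it. Among those without a match, the annotated UTR of Irs2 had only 30 bases and that of Igf1r 197.

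IGF2BP proteins bind many RNAs, of which 4 were listed here: the mRNAs of Igf2, Actb and Cd44 and the noncoding H19. Between iPSCs and D0, 1 of the 4 was more than 4-fold lower, beside 9.2% of all genes. This was Cd44, a hyaluronan receptor, at 1.70 against 86.0 FPKM. Igf2, a fetal growth factor, was at 83.5 FPKM in D0, 5.13 in D6T-, 52.2 in D12S+, 59.8 in D16S+ and 184 in D16S-. It was at 192 FPKM in iPSCs and 22.3 in mESCs, where Igf2bp1 was at 108 and 63.8 FPKM. H19, its imprinted noncoding neighbour, was at 454 FPKM in D0, 499 in D16S+, 1152 in D16S-, 448 in iPSCs and 35.9 in mESCs. Between D16S+ and D16S-, 3 of the 4 were more than 2-fold lower (Igf2, H19 and Cd44), beside 15.2% of all genes, and the median was -1.41 beside -0.02.

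**Figure D5:**
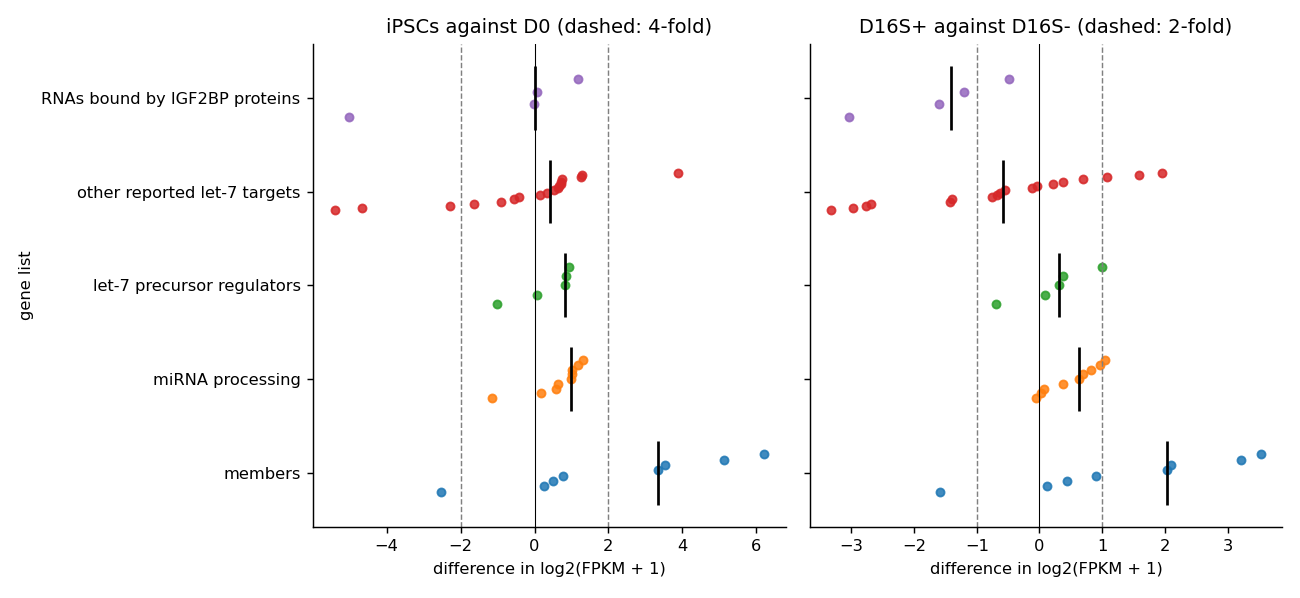
Difference in log2(FPKM + 1) (x axis) of each gene in 5 lists (y axis) between iPSCs and D0 (left) and between D16S+ and D16S- (right), 1 library per condition. Points are genes, short black lines are the medians of the genes that passed the filter (the 8 members are all drawn, and their median is over 7), and dashed lines mark the fold used for counting. The members have the highest median on both sides, at 3.35 and 2.04, and the other let-7 targets spread to both sides of 0.

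The course over the 12 libraries was compared between genes by Pearson's correlation of log2(FPKM + 1). It is a description over libraries of 1 series that share cells, medium and route, and carries no p-value. Lin28a correlated with Trim71 at 0.98, with Igf2bp1 at 0.97, with Mycn at 0.95 and with Hmga2 at -0.61. Among 8797 genes that reached 10 FPKM, the 3 most like Lin28a were Dppa4 (0.995), Camsap3 (0.992) and Trim6 (0.991), and the 3 most like Trim71 were Camsap3 (0.993), Cbx7 (0.992) and Hic2 (0.991). Those of Igf2bp1 were Cry1 (0.989), Tdrd12 and Fntb (0.988 each), and those of Mycn were Gprasp2 (0.984), Gng3 (0.981) and Mok (0.98). Among the genes nearest to Hmga2 were Crtap (0.985), a collagen-modifying protein, and Chst12 (0.97). For the flat Igf2bp2 the nearest were Nudt17 (0.924), Casp9 and Ndufa7 (0.907 each), and for Igf2bp3 Plrg1 (0.904), Usp39 (0.902) and Aktip (0.894). Ranked by Spearman's correlation instead, 2 of the 3 nearest genes were kept for Trim71 and for Hmga2, and 0 of 3 for each of Lin28a, Igf2bp1, Igf2bp2, Igf2bp3 and Mycn.

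A limit applies to 3 of the genes. Annotated genes of the opposite strand overlap exons of Lin28a (Gm13061), Hmga2 (1700006J14Rik) and Igf2bp3 (2410003K15Rik), and whether strand was used in counting was not given in the sources used here, so reads of the pairs may not be separated.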

How the data were processed

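The authors sequenced polyA RNA of 12 conditions, 1 library each, mapped reads to mm9 with STAR, removed reads with more than 2 mismatches or more than 1 locus, and estimated expression with cuffdiff. The deposited values are FPKM per gene with the lower and upper end of an interval (95% by the default of cuffdiff). Removing reads of more than 1 locus lowers genes with near-identical copies. Versions, annotation, library scaling and strand use were not given in the sources used here. The labels name a stranded kit, whereas the study's methods name a TruSeq kit without that word. The 12 status columns of cuffdiff were not used. Columns were matched to libraries by day and sorting sign.

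Values were taken as log2(FPKM + 1), and genes of at least 1 FPKM in at least 1 library were kept. Counts past 2-fold (fractions, D3) or 4-fold (end points, D16S-) were made without a test, since each group had 1 library. The 8 members and the genes of 4 lists past these folds between iPSCs and D0 or on day 16 are named, along with the 3 nearest genes of each member by correlation, and other list genes named here (Drosha, Zcchc11, Zcchc6, Dis3l2) were chosen after their values were seen. Some genes that met the rule are not reported here. Members and lists were chosen with earlier results of these data known. Absolute depth is unknown, and relative depth came from the steps of genes under 0.5 FPKM. Seed matches were read from GENCODE M1 UTRs, and 18 of 18 windows equalled the mm9 genome. Functions were tested on simulated data. Python 3.11.15, pandas 2.3.3, numpy 2.4.6, scipy 1.17.1 and matplotlib 3.10.9 were used. Alternatives were a pseudocount of 0.1, filters of 5 FPKM and none, scaling to the same total FPKM and to a median of ratios, other folds, and Spearman correlation.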

Additional observations from a re-analysis of the deposited data

Results flagged for a closer look

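For 4 of the 8 genes the sign of the difference between the fractions was opposite on different days, on the scale of log2(FPKM + 1). These differences were not tested, since each fraction had 1 library. How many of all genes changed sign in this way was not counted, so the count of 4 is a description only. Lin28a differed by -0.0213 between Thy-1- and Thy-1+ cells on day 6, where it was at 0.0176 and 0.0327 FPKM. These levels are 2.00 and 3.00 of the estimated fragment units, so that the sign on day 6 may rest on a few fragments. Lin28a differed by 3.53 between SSEA-1+ and SSEA-1- cells on day 16. Mycn differed by -0.28 on day 6 (0.288 against 0.565 FPKM) and by 3.21 on day 16. Igf2bp3 differed by -0.17 on day 6 (10.7 against 12.1 FPKM) and by 0.90 on day 16 (17.5 against 8.94 FPKM). Igf2bp2 differed by -0.28 on day 6 (50.3 against 61.2 FPKM) and by 0.39 on day 12 (69.1 against 52.5 FPKM). The day 6 differences were each less than 2-fold. On day 9, also sorted on Thy-1, the difference was 0.44 for Lin28a, 0.69 for Mycn and 0.23 for Igf2bp3, and -0.13 for Igf2bp2. The sign of the first 3 thus differed between days 6 and 9 under the same sorting marker, and for Igf2bp2 between the Thy-1 and the SSEA-1 days.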

How the results depend on the processing

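No paired analysis was possible because each condition had 1 library, and for the same reason no library could be left out of a group. Of 96 recomputed counts of genes of the axis past the fold, 92 stayed within 1.5 times the reported count. The other 4 arose at a threshold of 4-fold: the count of lower genes became 0 in D3 against D0, 0 in D9T- against D9T+ and 0 in D16S+ against D16S- (1 each as reported), and the count of higher genes in D12S+ against D12S- became 2 (4 as reported). This threshold leaves fewer genes by construction. Some counts changed within the margin of 1.5 times. That of higher genes in D16S+ against D16S- became 5 under the same total FPKM (4 as reported), with Igf2bp3 added. That of higher genes in D16S- against D0 became 3 at 2-fold (2 as reported). The 16 counts at a filter of 5 FPKM could not change, since the same genes of the axis passed it. The 16 without a filter could not change either, since that adds Lin28b alone, which passed no fold. Of 192 recomputed log2 differences 0 reversed a difference past the fold and 13 moved by more than 1.5-fold, each under a pseudocount of 0.1, where iPSCs against D0 gave 9.22 for Lin28a, 6.89 for Trim71 and 4.25 for Mycn. Scaling to the same total FPKM moved the median of all genes by 0.14 in D3 against D0, by 0.16 in iPSCs against D0 and by 0.19 in D16S- against D0, and by 0.08 or less in the other comparisons. Under it the uncalled difference of Igf2bp2 between D3 and D0 was 0.19 (-0.08 as reported). Of 21 sets of nearest genes recomputed, 9 kept fewer than 2 of their 3 genes. Medians of the 4 lists moved by less than 1.5-fold in 64 of 64 cases, and in 8 of 8 without Myc, an alternative chosen after seeing the data. Small medians nevertheless changed sign: in D16S- against D0 that of the other let-7 targets was 0.15 and became -0.12 without Myc, and under the same total FPKM that of the processing genes went from -0.04 to 0.26 there and that of the precursor regulators from -0.10 to 0.16 in D3 against D0. Depth limits Lin28a in D0, D3 and both fractions of day 6, at 2.00 to 3.00 of the estimated fragment units.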
